A study of Ceratopteris richardii with 6 samples.

Results

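The 52 assembled genes described here were lower after 24 h of the synthetic auxin 2,4-D and stood near their mock level again at 48 h, in whole sporophyte seedlings of the fern Ceratopteris richardii. They were chosen by their measured levels, from 88641 genes in the deposited table. The measure was the mean of log2(TPM + 1) over the 2 libraries of a group, where TPM is a gene's share of a library's transcripts on a fixed scale, corrected for gene length. A member had a highest group mean of at least 10 and under 1000 TPM, a window that held 15731 genes. Its 24 h mean lay at least 1 below mock on the log2 scale, its 48 h mean at least 0.5 above the 24 h mean, and its 48 h mean within 0.5 of mock. Every contrast among the 3 groups was therefore used in the choice, so the members' levels below are a description of these libraries and no test of the pattern.

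Seedlings of the wild type RNWT1 gave 3 groups of 2 libraries each, namely mock, 24 h on medium with 2 µM 2,4-D, and 48 h on that medium. The sporophyte is the generation of a fern that carries roots and fronds. Spores of all groups had grown for 30 days on 1/2 MS medium when treatment began, and the table's columns place the mock libraries at day 0. An untreated group at 24 h or 48 h is not analysed here, so the effects of 2,4-D, of transfer and of age cannot be told apart. Whether replicate libraries stem from separate cultures is not stated in the labels, so the spread between them may be technical. In whole seedlings, fewer cells of a type and less RNA per cell cannot be told apart either.

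In flowering plants, auxin is sensed by TIR1/AFB receptors, which mark Aux/IAA repressors for breakdown and so free the ARF transcription factors. Among the genes that respond first are those for Aux/IAA repressors and for GH3 enzymes, which conjugate auxin, and both act as feedback brakes on the signal. 2,4-D is broken down more slowly in plants than the natural auxin and is a poor substrate of auxin export. Which members belong to this pathway cannot be read from the files, which list genes under Trinity assembly IDs without names. Of the 88641 IDs, 0 matched the 36816 genes of the RefSeq table for assembly C.richardii_v2, so roles, positions and sequences are not given. For the same reason the labelled tissue could not be checked against marker genes, and no gene list of a pathway or cell type could be counted.

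Read depth is unknown, since TPM keep none. A library had from 56149 to 59991 genes above 0. Those that reached 1 TPM in 2 or more libraries (32225 genes) entered the fit, all 52 members among them. Over these genes the median log2 change was 0.098 for 24 h minus mock, -0.18 for 48 h minus 24 h and -0.083 for 48 h minus mock, so the bulk of the table moved slightly against the members at both steps. Trimmed-mean rescaling of the libraries brought these medians to -0.0041, -0.0011 and -0.0009.

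Summed over the 52 members, the mock libraries held 2668 and 3338 TPM, the 24 h libraries 1076 and 1102 TPM, and the 48 h libraries 3043 and 2765 TPM. The 24 h sums lay below all others, and the 48 h sums lay between those of the mock libraries. The median member stood at 25.2 and 29.7 TPM in the mock libraries, 10.1 and 10.4 TPM in the 24 h libraries, and 25.5 and 22.9 TPM in the 48 h libraries. Group means of single members ran from 9.29 to 400.9 TPM in mock, from 0.68 to 139.2 TPM at 24 h, and from 7.81 to 474.6 TPM at 48 h. The median change was -1.37 (log2) for 24 h minus mock, 1.33 for 48 h minus 24 h and -0.10 for 48 h minus mock.

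**Figure D1:**
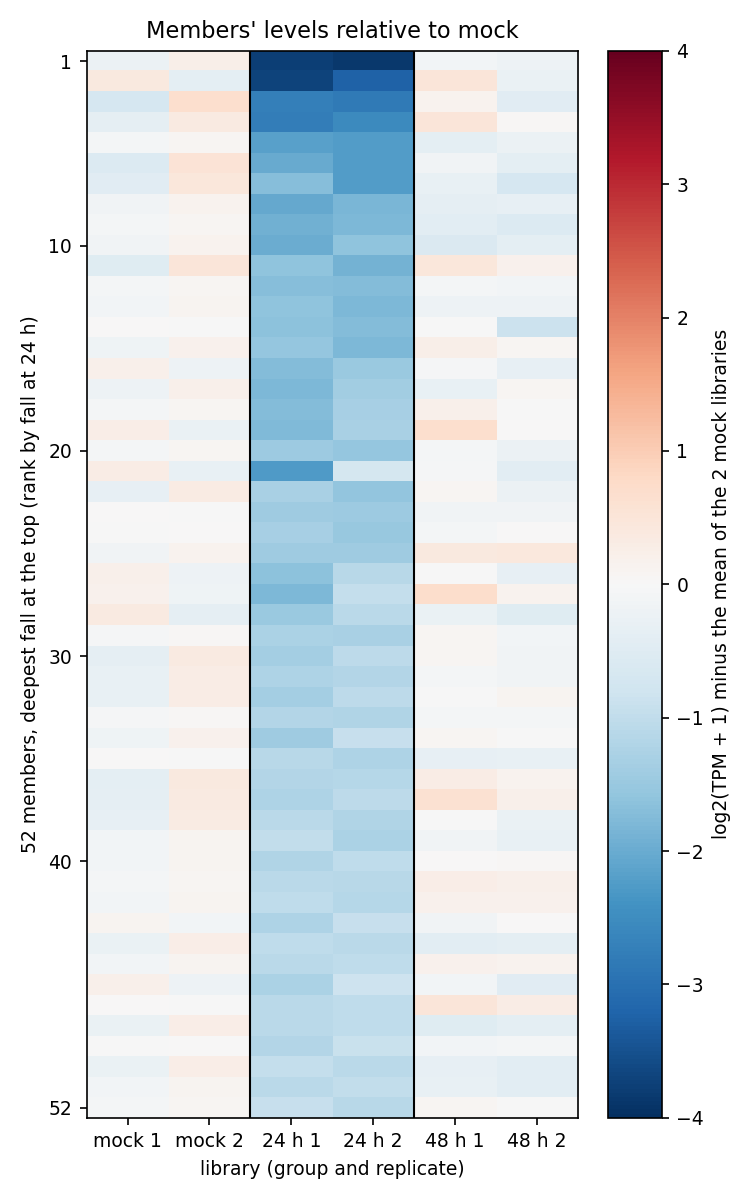
Levels of the 52 members (rows, deepest fall at the top) in each of the 6 libraries (columns), as log2(TPM + 1) minus the mean of the 2 mock libraries. The 24 h columns are blue in every row, and the 48 h columns are close to the mock columns, a pattern that the rule set for the group means.

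The deepest fall was that of RO_TRINITY_DN1993_c0_g1, which had 45.4 and 62.9 TPM in mock, 3.01 and 2.77 TPM at 24 h, and 49.7 and 45.9 TPM at 48 h. Its 24 h libraries lay far below the rest, and both 48 h libraries lay between the mock libraries. The log2 difference was -3.81 ± 0.14 (SE) for 24 h minus mock and 3.65 ± 0.14 for 48 h minus 24 h, so that the 24 h mean was 5.34% of the mock mean. For 48 h minus mock the difference was -0.16 ± 0.14, with a 95% interval of -0.50 to 0.18. Without mock replicate 1, whose level was the lower of the mock libraries, that difference was -0.39. Without mock replicate 2 it was 0.07, opposite in sign.

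SHA_TRINITY_DN115622_c0_g1 came next, with 23.7 and 13.6 TPM in mock, 0.47 and 1.02 TPM at 24 h, and 25.5 and 14.8 TPM at 48 h. Mock and 48 h libraries were alike in level and in spread, with replicate 1 the higher in both groups, and the 24 h mean of 0.745 ± 0.389 TPM (SD, n = 2) was 4.00% of the mock mean of 18.6 ± 7.15 TPM. Its log2 difference was -3.46 ± 0.32 (SE) for 24 h minus mock and 0.11 ± 0.32 for 48 h minus mock, and the 95% interval of the 48 h difference was -0.65 to 0.86.

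The members with the largest rise from 24 h to 48 h, apart from these, were RO_TRINITY_DN4495_c0_g2 and RO_TRINITY_DN134858_c0_g1. RO_TRINITY_DN4495_c0_g2 had 9.46 and 16.0 TPM in mock, 0.97 and 1.28 TPM at 24 h, and 17.8 and 12.6 TPM at 48 h. Its log2 difference was -2.65 ± 0.25 (SE) for 24 h minus mock, 2.92 ± 0.25 for 48 h minus 24 h and 0.27 ± 0.25 for 48 h minus mock. RO_TRINITY_DN134858_c0_g1 had 6.19 and 17.5 TPM in mock, 0.74 and 0.62 TPM at 24 h, and 11.6 and 7.44 TPM at 48 h. In both genes the 24 h libraries differed less than the mock libraries on the log2(TPM + 1) scale, which understates differences at such low levels. For RO_TRINITY_DN134858_c0_g1 the SD between the mock libraries on that scale, 0.97, was the widest of any member. Its log2 difference was -2.78 ± 0.41 (SE) for 24 h minus mock, and 48 h minus mock had a 95% interval of -1.13 to 0.80. Without mock replicate 1, 48 h minus mock was -0.85, and without mock replicate 2 it was 0.52, opposite in sign.

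**Figure D2:**
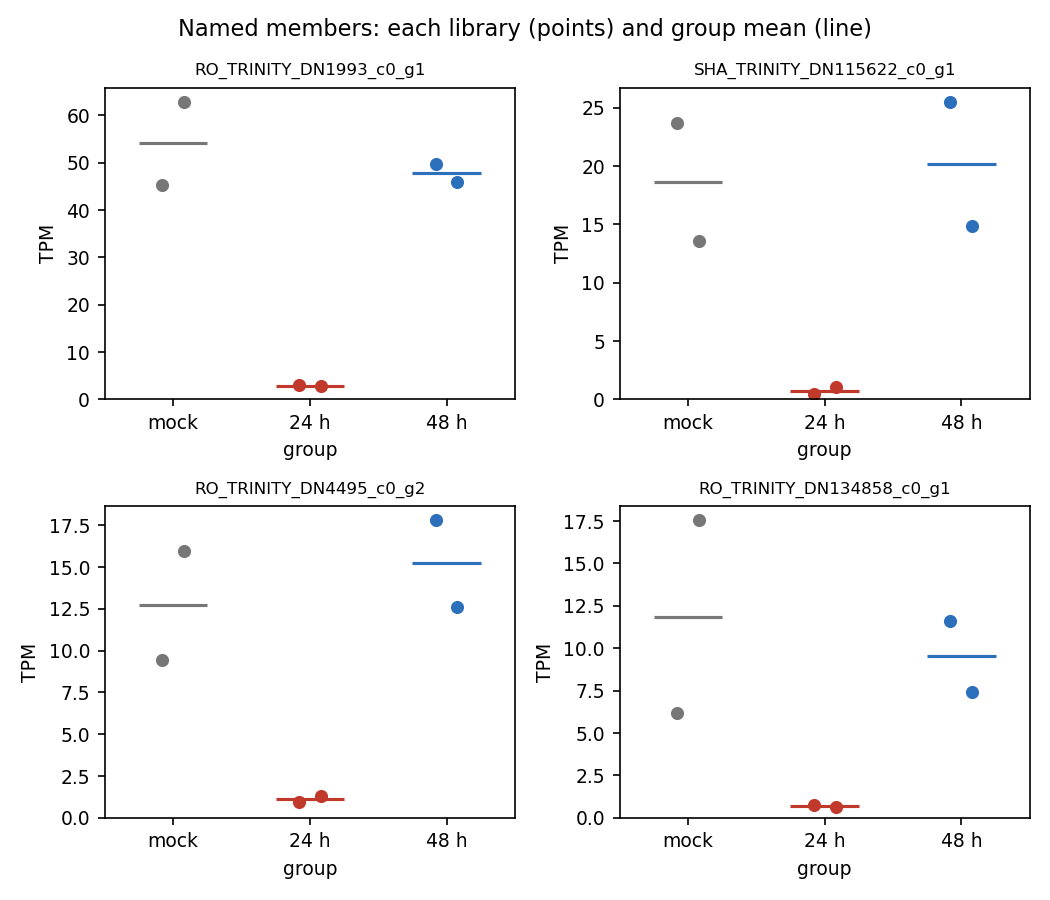
TPM of the 4 named members in each library (points) with the group mean (line), in mock, at 24 h and at 48 h. In each panel both 24 h points lie near 0 and below all others, and the 48 h points lie in or near the range of the mock points.

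Most members moved less than these. The log2 fall at 24 h was at least 3 in 2 members, at least 2 in 6, between 1.5 and 2 in 13, and under 1.5 in 33. Expressed on the TPM scale, the 24 h mean was between 4.00% and 48.5% of the mock mean, with a median of 35.8%. Across the 52 members, Spearman rho was 0.15 for the log2 change at 24 h against the log2 mock mean, over genes that share the 6 libraries. The mock libraries enter both values, and the rule limits the fall and the highest group mean, so no relation is read from it. The median log2 change was -1.49 in the 19 members under 20 TPM in mock, -1.15 in the 16 from 20 to 50 TPM, -1.28 in the 11 from 50 to 100 TPM, and -1.55 in the 6 at or above 100 TPM.

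The pattern thus also held abundant genes. The member with the highest mock mean had 269 and 533 TPM in mock, 123 and 101 TPM at 24 h, and 524 and 425 TPM at 48 h. Its mock libraries differed more from each other than mock replicate 2 did from either 48 h library. The member ranked next in mock level had 280 and 317 TPM in mock, 91.2 and 88.0 TPM at 24 h, and 280 and 277 TPM at 48 h. Its replicates were close in every group, and its log2 difference was -1.72 ± 0.07 (SE) for 24 h minus mock and -0.10 ± 0.07 for 48 h minus mock. Above the window, 3 further genes with a group mean of at least 1000 TPM met the log2 limits.

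Each 24 h library could be set against each other library. In all 52 members both 24 h libraries lay below both mock libraries, as they did in 18.1% of all genes tested, and below both 48 h libraries, as in 20.5% of all genes. Against mock replicate 2, 52 members were lower by at least 1 in 24 h replicate 1 and 45 in 24 h replicate 2. Against mock replicate 1, the numbers were 39 and 37. Mock and 48 h libraries overlapped in 32 members and were apart in 20, against 69.8% of all genes tested in which they were apart. The rule used these same values, so nothing is read from the members' counts.

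By limma with Benjamini-Hochberg adjustment over all 32225 genes, 51 of the 52 members were called lower at 24 h than in mock, against 5.07% of all genes. The same number was called higher at 48 h than at 24 h, against 11.1% of all genes. At 48 h, 8 members differed from mock, 3 of them higher and 5 lower, against 38.4% of all genes called in either direction. All 3 statements, lower at 24 h, higher at 48 h than at 24 h and not called against mock at 48 h, held for 43 members, against 1.00% of all genes. The member that missed both of the first calls had 16.8 and 11.1 TPM in mock, 2.03 and 7.97 TPM at 24 h, and 13.2 and 9.85 TPM at 48 h. Its 24 h libraries were the most unlike of any member on the log2 scale, with an SD of 1.11, and its change of -1.49 ± 0.46 (SE) gave adjusted p-values of 0.0713 for 24 h and 0.0674 between the times by limma. These calls rest on the contrasts that chose the genes. More members were called at 48 h against mock when a mock library was left out, and fewer when a 24 h or 48 h library was. The count over all genes fell in each case. The members' median for 48 h minus mock was -0.15 without mock replicate 1 and 0.02 without mock replicate 2. It was -0.14 without 48 h replicate 1 and -0.05 without 48 h replicate 2. The count of all genes called lower at 24 h was 1633, and 997 without mock replicate 2, 918 without 24 h replicate 1 and 896 without 24 h replicate 2.

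The background shares depended on the scaling. Higher genes made up 68.4% of all calls at 24 h against mock, or 46.0% after trimmed-mean rescaling and 51.5% after quantile normalization. Between 48 h and 24 h the share was 28%, or 53.8% and 45.9% under these scalings, and between 48 h and mock it was 41.3%, or 52.4% and 47.8%. Rescaling by the trimmed mean put the members' median at -1.48 for 24 h minus mock, 1.51 for 48 h minus 24 h and -0.003 for 48 h minus mock.

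How closely the members returned was bounded by the rule, and its reading was limited by the spread. The 48 h mean was between 66.3% and 138.8% of the mock mean on the TPM scale, with a median of 92.4%, and was above mock in 18 members and below it in 34. The median rise amounted to 93.8% of the preceding fall on the log2 scale, with a range from 57.8% to 137% that the rule bounds. In 13 members the 48 h mean lay within 0.1 (log2) of mock. The 95% interval of 48 h minus mock had a median reach of 0.37 to each side, and a reach of 0.16 to 1.08 in single members. It included 0 in 40 members, stayed within 1 of mock in 48, and reached past 1 in 4. The rule keeps the centre of each interval within 0.5 of mock, so these counts largely follow from the choice. A difference that did not pass the test is thus not shown to be absent.

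**Figure D3:**
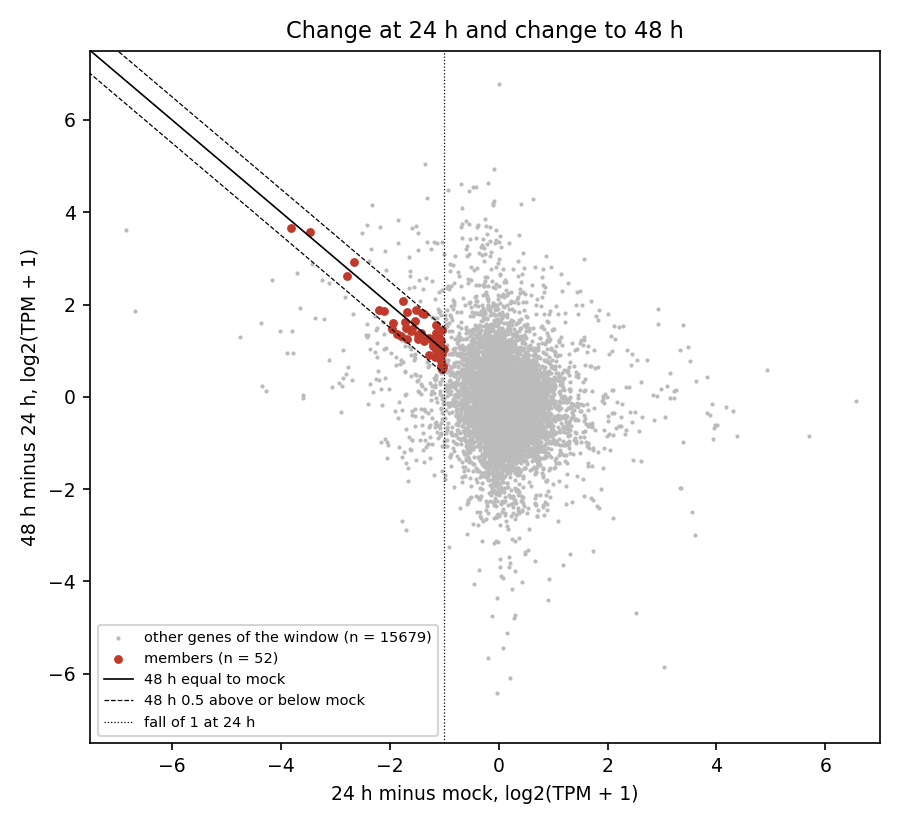
Change at 24 h (24 h minus mock, horizontal) and change to 48 h (48 h minus 24 h, vertical), both in log2(TPM + 1), for the 15731 genes of the abundance window. The rule places the 52 members (red) between the dashed lines, 0.5 above and below the line on which 48 h equals mock. Their falls reach -3.81.

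The limits cut through a continuum. The member closest to the limit on the fall had a log2 change of -1.01 at 24 h, and the nearest gene outside had -0.99, with 12 genes within 0.1 outside it. On the distance from mock at 48 h, members reached 0.43 above and -0.49 below, and the nearest genes outside lay at 0.51 and -0.50, with 4 and 11 genes within 0.1 outside. The lowest highest-group mean of a member was 10.9 TPM, against 9.66 TPM in the nearest gene outside. The limit on the rise excluded no gene, because a fall of at least 1 with a return to within 0.5 already implies it, and the smallest rise was 0.60.

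In the same abundance window, 287 genes (1.82%) had a 24 h mean at least 1 below mock, and the 52 members made up 18.1% of them. At 48 h, 81 of the 287 (28.2%) had moved by less than 0.5 from their 24 h level, and 51 (17.8%) were lower by a further 0.5 or more. A rise of at least 0.5 that still left the gene 0.5 or more below mock was seen in 61 (21.3%), and 42 (14.6%) stood above mock by 0.5 or more. The median fall of the members was -1.37, against -1.42 in the genes that stayed near their 24 h level, -1.38 in those that fell further, -1.42 in those above mock and -2.24 in those that came partway back. With all signs turned, 390 genes of the window were at least 1 above mock at 24 h, and 58 of them (14.9%) were back within 0.5 of mock at 48 h. These classes were cut from the same values and were not tested against each other.

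**Figure D4:**
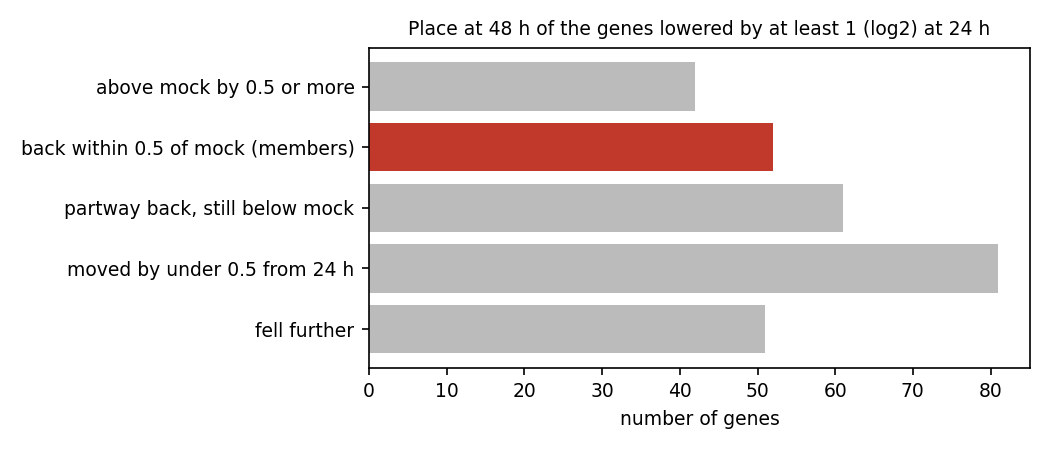
Number of genes in each class at 48 h, for the 287 genes of the window whose 24 h mean lay at least 1 (log2) below mock. The 52 members (red bar) are fewer than the 81 genes that stayed near their 24 h level and the 61 that came partway back.

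The same limits were also applied to the libraries numbered 1 alone, and the genes so chosen were read in the libraries numbered 2, which that choice had not used. The numbers only name libraries and do not pair them. In libraries 1 alone, 58 genes met the limits. In the libraries numbered 2, 55 of these were again lower at 24 h than in mock, 46 (79.3%) by at least 1, against 2.32% of the genes in the window, and their median change was -1.55. All 58 were higher at 48 h than at 24 h there, with a median of 1.17. Their median for 48 h minus mock was -0.30, and 31 lay within 0.5 of mock, so that 22 (37.9%) met every limit again, against 0.375% of the window. In the other direction, 59 genes met the limits in libraries 2. In libraries 1, 58 of them were lower at 24 h than in mock, 30 (50.8%) by at least 1, against 1.64% of the window, with a median of -1.02. A rise from 24 h to 48 h was measured there in 58 of the 59, with a median of 1.34. The median for 48 h minus mock was 0.21, opposite in sign to that of the first direction, and 41 lay within 0.5 of mock. Every limit was met by 22 (37.3%), against 0.365% of the window. These are the same 22 genes in both directions, so the second count follows from the first. All 22 are members, which were chosen on the libraries of both numbers. The window's share with a fall or a rise of any size was not counted, so nothing is read from those counts. Since the replicates may be technical, this reading is no independent test of the pattern.

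Members varied more between the mock libraries than genes of the window did. The median SD of a member between replicates, on the log2 scale, came to 0.23 for mock, 0.12 for 24 h and 0.12 for 48 h, against 0.071, 0.058 and 0.060 over the whole window. The other 235 genes of the window that were at least 1 lower at 24 h had 0.206, 0.118 and 0.119. The direction was uneven too. Mock replicate 2 was higher than mock replicate 1 in 39 of 52 members (75%), against 52.1% of the window and 86.8% of the other 235 genes. At 48 h, replicate 2 was the higher in 13 of 52 (25%), against 38.4% of the window, while the 24 h libraries were evenly divided at 27 and 25. Across the 52 members, the difference replicate 2 minus replicate 1 had a Spearman rho of -0.45 between mock and 24 h, 0.04 between mock and 48 h and -0.06 between 24 h and 48 h, over genes that share these libraries. Without mock replicate 2, 52 genes met the rule and 32 of them were members. Without mock replicate 1, 59 genes met it, 39 of them members. The part of this difference between the mock libraries in the falls was not tested.

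Each ID opens with 1 of 5 prefixes, of unstated meaning. LE, RO and SHA had 13 members each, LA had 7 and RT had 6. LE made up 25% of the members and 15.8% of the window, and LA 13.5% of the members and 24.6% of the window. Of the genes at least 1 lower at 24 h, 28.3% of the 46 with the prefix LE were back near mock at 48 h, against 10.6% of the 66 with LA. RO, SHA and RT lay between, with 21.0% of 62, 17.6% of 74 and 15.4% of 39. These shares rest on few genes and were not tested.

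Genes of the same assembly component, which share all of the ID up to its last g number, can share reads. No component held 2 or more members, and 44 members were alone in theirs. The other 8 shared a component with 12 further genes, of which 5 were abundant enough to be tested. Component totals met the 3 log2 limits for 4 of the 8. Among the 5 components with a tested partner, only 1 met them, with -1.10, 0.98 and -0.12 for its sum. In the rest of the 4, the further genes averaged under 1 TPM in every group, so the sum was nearly the member itself. For RO_TRINITY_DN4495_c0_g2, the other gene of the component had 7.23 and 6.55 TPM in mock, 8.58 and 8.95 TPM at 24 h, and 9.31 and 8.59 TPM at 48 h. The summed component changed by -0.91 for 24 h minus mock, against -2.65 for the member. Of the 5 tested partners, 3 were higher at 24 h than in mock, by 0.20, 0.31 and 1.31 (log2), and 2 were lower, by less than the member beside them, at -0.43 and -0.61. The partner that differed by 0.20 then had a change of -0.82 for 48 h minus 24 h, opposite in sign to its member at both steps. The partner with the change of 1.31 had 17.0 and 11.7 TPM in mock, 35.9 and 37.2 TPM at 24 h, and 54.0 and 38.8 TPM at 48 h. The member beside it had 18.4 and 18.1 TPM in mock, 8.09 and 8.52 TPM at 24 h, and 25.8 and 22.7 TPM at 48 h. Their sum was higher at 24 h than in mock, by 0.45 (log2), so the fall of this member was not seen in the component. Whether reads moved between such genes was not tested.

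**Figure D5:**
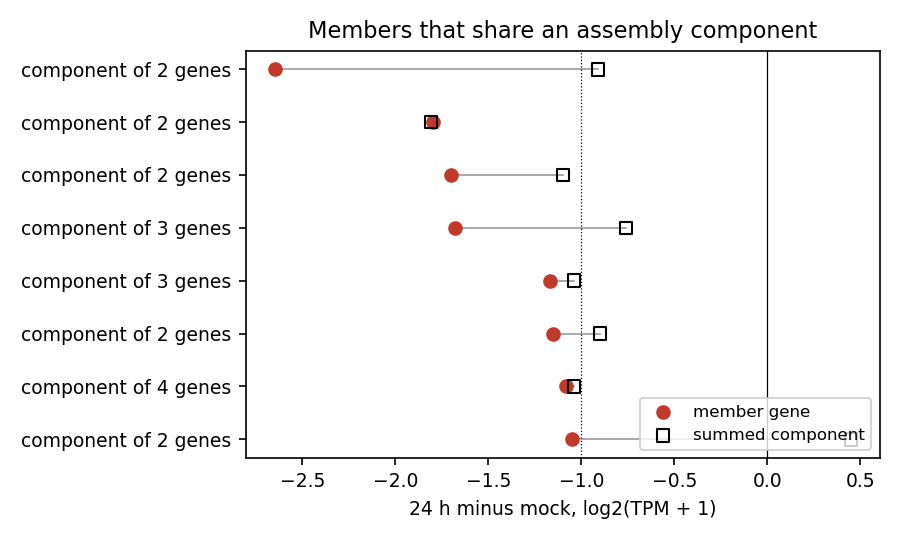
Change at 24 h (24 h minus mock, log2(TPM + 1)) of the 8 members that share an assembly component (red points) and of the summed TPM of that component (open squares). The square lies left of 0 in 7 components and right of 0, at 0.45, in the other.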

How the data were processed

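RNA of whole seedlings was sequenced in 6 libraries (mock, 24 h and 48 h of 2,4-D, 2 each). The authors deposited TPM per assembled gene, rounded to hundredths, in 1 table; column totals equal the TPM scale to within 1.81 TPM. Per the submitters' processing notes, RSEM 1.3.2, STAR 2.7.2b, Bowtie2 2.3.4.3 and Trim Galore 0.5.0 took part, and TAIR10 is listed as a build; their roles, and what that build does for a fern, are not stated. The 0d columns were taken as mock and the others by time and replicate number. Values were transformed as log2(TPM + 1), a scale that understates changes of low genes. The 32225 genes reaching 1 TPM in 2 or more libraries were fitted with the group as a factor in limma 3.58.1 (R 4.3.3, mean-variance trend, two-sided, Benjamini-Hochberg threshold 0.05), with 3 residual degrees of freedom and a prior of 4.18. The fit and the rule were run on simulated data with independent noise, which held no shared difference between the libraries of a group. Errors are SE from the fit or SD over 2 libraries. Named genes are the 2 members with the largest fall and the 2 others with the largest rise to 48 h. Members and settings were chosen with earlier results of these data known. Alternatives were another scaling, pseudocount, filter, trend, limit or replicate block, and each library left out.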

Additional observations from a re-analysis of the deposited data

How the results depend on the processing

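The rule gave 52 genes, and 77 after trimmed-mean rescaling (51 of them members), 73 after quantile normalization (52 members), 53 with a pseudocount of 0.5 (50 members) and 42 with a pseudocount of 5 (32 members). It gave 89 genes with the limit on the fall eased to 0.75 and 29 with it tightened by as much, 31 with 48 h within 0.25 of mock and 82 within 0.75. Leaving out 1 library gave between 52 and 60 genes. The members' median for 24 h minus mock was -1.03 with a pseudocount of 5, and between -1.44 and -1.24 with libraries left out. For 48 h minus 24 h it was 1.51 after trimmed-mean rescaling, 1.47 after quantile normalization and 1.05 with a pseudocount of 5. For 48 h minus mock it ranged from -0.196 in the libraries numbered 2 alone to 0.11 in those numbered 1 alone. All genes called lower at 24 h numbered 2524 after trimmed-mean rescaling, 1062 with no filter, and 896 to 1459 with a library left out. Those higher at 48 h than at 24 h numbered 5837 after trimmed-mean rescaling. Of the members, 5 were called at 48 h against mock after quantile normalization, 3 with no filter, 4 with no mean-variance trend, and 3 to 14 with a library left out. Members called lower at 24 h numbered 44 to 51 with a library left out, and those called higher at 48 h than at 24 h numbered 45 to 51. In these fits the single library of a group was assumed to vary like the others. For 48 h against mock, calls over all genes numbered 11976 after quantile normalization, 9864 with no filter and 11113 with no mean-variance trend. The main fit had 12365. With a library left out, the count over all genes fell each time. The count of members called at 48 h against mock rose when a mock library was left out. It fell when a 24 h or 48 h library was left out. Members were chosen on these contrasts, so a change in their counts is no result about them. Genes with all 3 calls numbered 613 after trimmed-mean rescaling and 519 after quantile normalization, 45 and 46 of them members, and 163 without 24 h replicate 2 and 190 without 24 h replicate 1.

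The replicate number was also fitted as a block (replicate block). There, 51 members were called lower at 24 h, 51 higher at 48 h than at 24 h and 9 at 48 h against mock. Over all 32225 genes, the corresponding calls numbered 1524, 3540 and 12137. Since the members were chosen on these contrasts, their counts are no test. Deviations of same-numbered libraries correlated across genes with r between -0.008 and 0.052 over all tested genes, and the labels tie same-numbered libraries to nothing shared. Unknown depth limits what the low 24 h levels, some under 1 TPM, can show.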
